A study of Mus musculus with 8 samples.

Results

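The genes described here encode the enzymes that build cholesterol from acetyl coenzyme A, the SREBP transcription factors and their regulators, and the enzymes of cytosolic fatty acid synthesis. The set holds 28 genes, listed by name and found by their symbols among the 27179 entries of the count table. By role they are 7 genes of the mevalonate steps, 11 of the squalene and sterol steps, 6 of SREBP regulation and sterol carriage, and 4 of cytosolic lipogenesis. All 28 passed the filter on low counts.

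The RNA was taken from EpCAM-positive cells, sorted by flow cytometry from antral tumors of 4 Gp130FF; Yap1WT and 4 Gp130FF; Yap1KO mice, and each mouse gave 1 library. All 8 mice carry the gp130 receptor mutation (Gp130FF) that drives gastric tumors. By the study's methods both groups also carry Tff1:CreERT2 and Yap1 fl/fl. Tamoxifen removed exon 3 of Yap1 in cells with an active Tff1 promoter and gave Yap1KO, while vehicle gave Yap1WT, so tamoxifen and Yap1 loss cannot be told apart. The labels differ from this and place all 8 mice at 18 weeks of age and 3 days after tamoxifen. The study's methods give the same age as the labels, and its results and captions an older one. By Xist and Ddx3y, 3 libraries came from females, 2 of them Yap1WT and 1 Yap1KO. In these bulk libraries, fewer cells of a type and less RNA per cell cannot be told apart.

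Cells make cholesterol when they hold little of it. SREBP precursors then leave the endoplasmic reticulum together with SCAP, are cleaved in the Golgi, and release a factor that binds sterol elements in the promoters of these genes. With sterol abundant, the INSIG proteins hold SCAP back. SREBP2 acts mostly on sterol genes and SREBP1 mostly on fatty acid genes, and Srebf1 itself is also transcribed under the oxysterol receptors LXR. In the gastric epithelium these lipids supply membranes of cells that divide and secrete.

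Library totals were 27607755 to 77483047 counts in Yap1WT and 18229945 to 74278015 in Yap1KO, with a median count per library over the 28 genes of 1283.5 to 5627.5. Yap1KO replicate 4, the smallest library, stood apart from the other 7 on the leading principal component. Levels are given below as CPM, counts scaled to the library size and by TMM (a correction for library composition), with SD and n = 4 per group. Yap1, the targeted gene, was at 64.2 to 78.0 CPM in Yap1WT and at 21.3 to 29.7 in Yap1KO (log2 fold change -1.51, SE 0.13, adjusted p = 0.000208 from edgeR). Adjusted p-values come from edgeR's quasi-likelihood test over 13495 genes with Benjamini-Hochberg adjustment, and a gene is called lower or higher at 0.05.

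Most sterol synthesis genes had a log2 fold change below 0 in Yap1KO against Yap1WT, and few of them passed the test. Hmgcs1, Sqle, Lss and Insig2 fell and Srebf1 rose. The 4 lower calls among 28 genes stand against 2.34% of all genes tested, and the 1 higher call against 3.53%. The log2 fold change was below 0 for 22 of the 28 and above 0 for 6, with a median of -0.24, against -0.01 over all genes. At an unadjusted p under 0.05 there were 10 lower and 4 higher genes, where all genes gave 8.97% and 11.5%. In 8 genes every Yap1KO library lay below every Yap1WT library (6.01% of all genes did so), and in 1 gene above (7.19%). Under the 19 other settings tried, 21 to 24 of the 28 lay below 0.

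**Figure D1:**
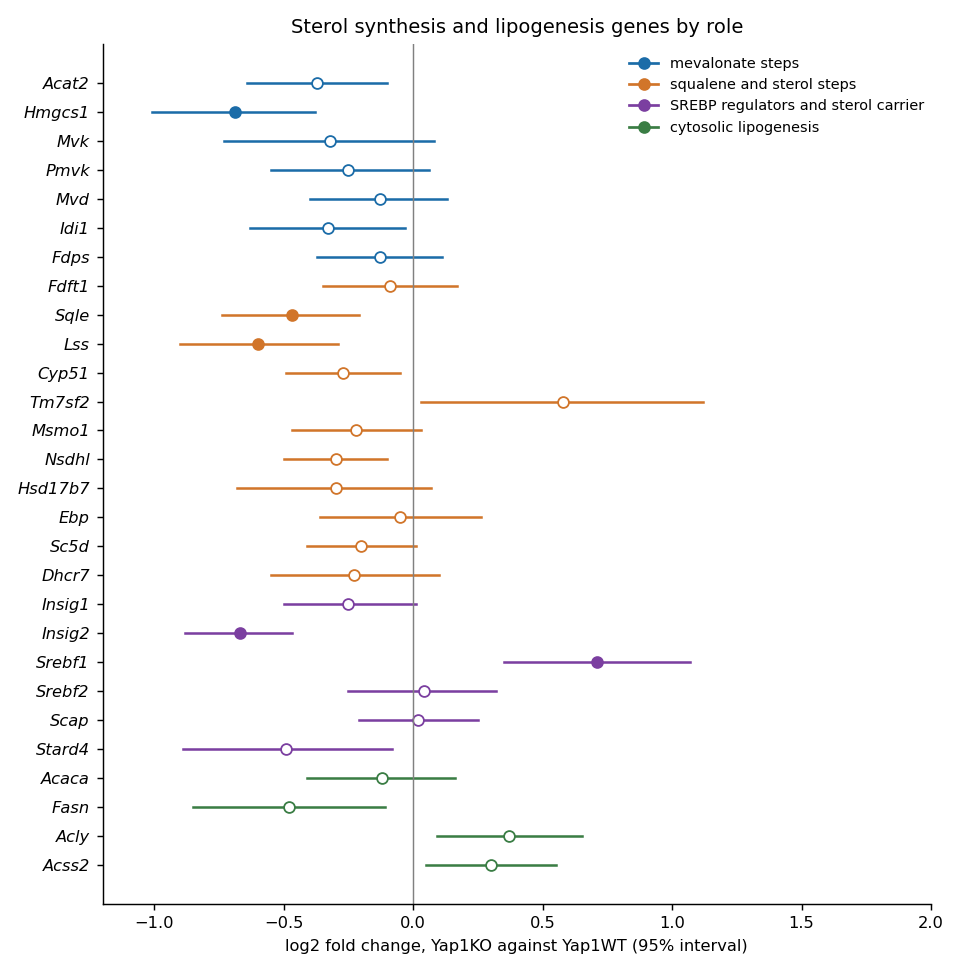
Log2 fold change (Yap1KO against Yap1WT, x axis) with its 95% interval for each of the 28 genes in pathway order (y axis), colored by role, filled where edgeR called the gene. The 4 filled points on the left are Hmgcs1, Sqle, Lss and Insig2, and the filled point on the right is Srebf1 at 0.71.

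The promoters of 4 of the called genes are shown, since no promoter sequence was available for Sqle, the other called gene. Each window runs from 250 bases before to 50 after an annotated start (RefSeq, GRCm38.p6), and where a gene has several starts, the window with most matches is shown, or the most upstream of those tied, as for Srebf1. Capitals mark matches to the sterol element TCACNCCAC or to the NF-Y box CCAAT, read on either strand. No match shown overlaps another.

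Hmgcs1 (chr13:119690101-119690400, plus strand): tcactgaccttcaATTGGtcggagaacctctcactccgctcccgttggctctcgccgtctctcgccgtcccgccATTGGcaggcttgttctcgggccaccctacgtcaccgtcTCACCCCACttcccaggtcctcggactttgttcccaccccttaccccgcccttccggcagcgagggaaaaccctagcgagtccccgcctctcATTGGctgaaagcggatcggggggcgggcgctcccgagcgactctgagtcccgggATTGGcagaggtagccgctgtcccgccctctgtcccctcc

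Lss (chr10:76531355-76531654, plus strand): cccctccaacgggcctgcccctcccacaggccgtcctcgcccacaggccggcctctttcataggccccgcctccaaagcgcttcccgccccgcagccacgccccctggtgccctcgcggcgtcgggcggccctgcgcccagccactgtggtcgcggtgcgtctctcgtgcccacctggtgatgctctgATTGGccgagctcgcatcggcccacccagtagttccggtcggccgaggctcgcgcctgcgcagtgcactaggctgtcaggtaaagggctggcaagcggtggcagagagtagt

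Insig2 (chr1:121332540-121332839, minus strand): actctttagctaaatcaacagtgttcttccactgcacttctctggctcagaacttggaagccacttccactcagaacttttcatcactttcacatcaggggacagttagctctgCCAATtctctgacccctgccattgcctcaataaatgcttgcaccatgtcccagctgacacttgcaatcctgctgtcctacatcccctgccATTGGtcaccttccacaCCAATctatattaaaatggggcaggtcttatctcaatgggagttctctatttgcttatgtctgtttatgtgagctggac

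Srebf1 (chr11:60222532-60222831, minus strand): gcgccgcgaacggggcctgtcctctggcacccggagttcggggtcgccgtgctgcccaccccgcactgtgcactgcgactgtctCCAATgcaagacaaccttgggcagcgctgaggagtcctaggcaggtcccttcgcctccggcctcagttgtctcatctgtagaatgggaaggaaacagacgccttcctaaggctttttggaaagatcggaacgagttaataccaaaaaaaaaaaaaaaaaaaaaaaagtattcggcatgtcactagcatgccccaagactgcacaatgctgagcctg

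The Hmgcs1 window holds the sterol element TCACCCCAC from position -137 and 4 NF-Y boxes. The Insig2 window holds 3 NF-Y boxes, and the Lss and Srebf1 windows 1 each. The tied Srebf1 window, chr11:60210422-60210721, also holds 1 NF-Y box and is not shown. The other Insig2 windows, chr1:121327975-121328274 and chr1:121327629-121327928, hold no match, and neither does the Srebf1 window chr11:60220578-60220877. The promoter table covers 24 of the 28 genes with 32 windows, and lacks Sqle, Fdps, Fdft1 and Stard4. Over those windows the sterol element was matched in Hmgcs1 alone, against 1.24% of all 32851 windows in the table. The NF-Y box was matched in 21 of the 24 genes (22 windows), against 37.4% of all windows. The E-box CACGTG was matched in 5 genes, Dhcr7, Hsd17b7, Insig1, Sc5d and Scap (6 windows), against 7.15% of all windows. These are letter matches only, so elements spelled otherwise were not counted, and no binding was measured.

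All 7 genes of the mevalonate steps, which turn acetyl coenzyme A into farnesyl diphosphate, had a log2 fold change below 0, with a median of -0.32. Hmgcs1 (chr13:119690351-119708260), whose enzyme forms HMG-CoA, was the 1 that passed the test. Its level was 394, 407, 529 and 488 CPM in Yap1WT replicates 1 to 4. In Yap1KO replicates 1 to 4 it was 308, 320, 229 and 267 CPM. Every Yap1KO library lay below every Yap1WT library, with Yap1KO replicate 3 lowest and Yap1WT replicate 3 highest. The mean fell from 454 ± 65.1 to 281 ± 41.3 CPM (log2 fold change -0.69, SE 0.14, adjusted p = 0.0184 from edgeR).

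Acat2, which makes acetoacetyl coenzyme A in the cytosol, was at 44.4, 44.4, 45.8 and 48.2 CPM in Yap1WT and at 29.7, 42.0, 37.5 and 32.2 in Yap1KO. Its groups did not overlap either, but it did not pass the test (log2 fold change -0.37, SE 0.12, adjusted p = 0.111 from edgeR). Idi1, the isopentenyl diphosphate isomerase gene, had a log2 fold change of -0.33 (95% interval -0.63 to -0.03), with overlap between the groups. Mvk and Pmvk, which encode the mevalonate kinases, were at -0.32 and -0.25, and Mvd, the decarboxylase, and Fdps, the farnesyl diphosphate synthase, both at -0.13. The levels of these 5 genes ranged from 21.6 CPM (Mvk) to 121 CPM (Idi1), and none of them passed the test. Summed over the 7 genes, the level was 737 to 878 CPM in Yap1WT and 499 to 674 in Yap1KO. Hmgcs1 was the largest part of that sum, and without it the groups overlapped, at 343 to 382 and 269 to 353 CPM.

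Of the 11 genes that carry farnesyl diphosphate to cholesterol, 10 had a log2 fold change below 0, and Sqle and Lss passed the test. Their enzymes act in sequence, squalene epoxidase (Sqle) and then lanosterol synthase (Lss), which closes the sterol rings. Sqle (chr15:59315092-59331193) was at 138, 136, 165 and 176 CPM in Yap1WT and at 121, 105, 97.3 and 120 CPM in Yap1KO. All Yap1KO values were below the lowest Yap1WT value, and the mean fell from 154 ± 20 to 111 ± 11.6 CPM (log2 fold change -0.47, SE 0.12, adjusted p = 0.0475 from edgeR). Lss (chr10:76531565-76557139) was at 63.9, 63.1, 69.3 and 84.9 CPM in Yap1WT and at 54.1, 47.8, 37.7 and 46.2 CPM in Yap1KO. Again the groups did not overlap, with Yap1KO replicate 3 lowest and Yap1WT replicate 4 highest, and the mean fell from 70.3 ± 10.1 to 46.5 ± 6.77 CPM (log2 fold change -0.60, SE 0.14, adjusted p = 0.0310 from edgeR).

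Cyp51 and Nsdhl, whose enzymes remove methyl groups from lanosterol and its products, separated the groups without passing the test. Cyp51 was at 248, 222, 233 and 259 CPM in Yap1WT and at 215, 199, 176 and 208 in Yap1KO (log2 fold change -0.27, SE 0.10, adjusted p = 0.153 from edgeR). Nsdhl was at 47.6, 47.5, 48.7 and 50.6 CPM in Yap1WT and at 37.4, 42.7, 38.8 and 39.0 in Yap1KO (log2 fold change -0.30, SE 0.09, adjusted p = 0.0834 from edgeR). In both genes the highest Yap1KO value lay below the lowest Yap1WT value. By DESeq2, Nsdhl passed, with an adjusted p of 0.0375.

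The other 7 genes of these steps overlapped between the groups. Fdft1, the squalene synthase gene, was at a log2 fold change of -0.09, and Msmo1, Hsd17b7, Ebp, Sc5d and Dhcr7, of later steps, were between -0.30 and -0.05. Tm7sf2, a sterol reductase gene, was the exception above 0 (log2 fold change 0.58, 95% interval 0.03 to 1.12, adjusted p = 0.218 from edgeR). It was at 40.4, 47.4, 23.8 and 29.4 CPM in Yap1WT and at 50.4, 73.1, 36.8 and 50.1 in Yap1KO, so Yap1KO replicate 3 lay among the Yap1WT values. Summed over the 11 genes, the level was 1080 to 1190 CPM in Yap1WT and 833 to 1040 in Yap1KO.

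Among the regulators, Insig2 fell and Srebf1 rose, while Insig1, Srebf2 and Scap did not pass the test. Insig2 (chr1:121304353-121332662), which retains SCAP in the endoplasmic reticulum, was at 61.4, 70.3, 67.1 and 71.5 CPM in Yap1WT. In Yap1KO it was at 44.5, 44.2, 42.3 and 38.5 CPM. The groups lay far apart relative to their spread, with means of 67.6 ± 4.53 and 42.4 ± 2.75 CPM, and the call had the smallest adjusted p of the 28 genes (log2 fold change -0.67, SE 0.09, adjusted p = 0.00250 from edgeR). Insig1, its paralog and itself a target of SREBP, was at 97.7, 108, 122 and 133 CPM in Yap1WT and at 105, 102, 88.3 and 92.4 in Yap1KO. Its groups overlapped through Yap1WT replicate 1 (log2 fold change -0.25, SE 0.12, adjusted p = 0.267 from edgeR).

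Srebf1 (chr11:60199084-60224186), which encodes SREBP1, was at 226, 177, 180 and 214 CPM in Yap1WT. It was at 391, 362, 233 and 316 CPM in Yap1KO. Every Yap1KO library lay above every Yap1WT library, with Yap1KO replicate 3 closest to them. The mean rose from 199 ± 24.8 to 326 ± 68.8 CPM (log2 fold change 0.71, SE 0.16, adjusted p = 0.0310 from edgeR). The counts sum all transcripts of the gene, so SREBP1a and SREBP1c cannot be told apart.

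Srebf2, which encodes SREBP2, was at 297, 250, 302 and 323 CPM in Yap1WT and at 334, 285, 248 and 336 in Yap1KO. Scap was at 141, 115, 132 and 126 CPM in Yap1WT and at 137, 136, 114 and 135 in Yap1KO. Both genes overlapped between the groups throughout, with log2 fold changes of 0.04 (95% interval -0.25 to 0.32) for Srebf2 and 0.02 (-0.21 to 0.25) for Scap, whose sign changed when single libraries were left out. Stard4, a carrier that moves sterol between membranes, was at 45.3, 61.0, 75.9 and 64.9 CPM in Yap1WT and at 56.5, 40.1, 44.6 and 34.5 in Yap1KO. Its groups overlapped, and it did not pass the test (log2 fold change -0.49, SE 0.18, adjusted p = 0.160 from edgeR).

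**Figure D2:**
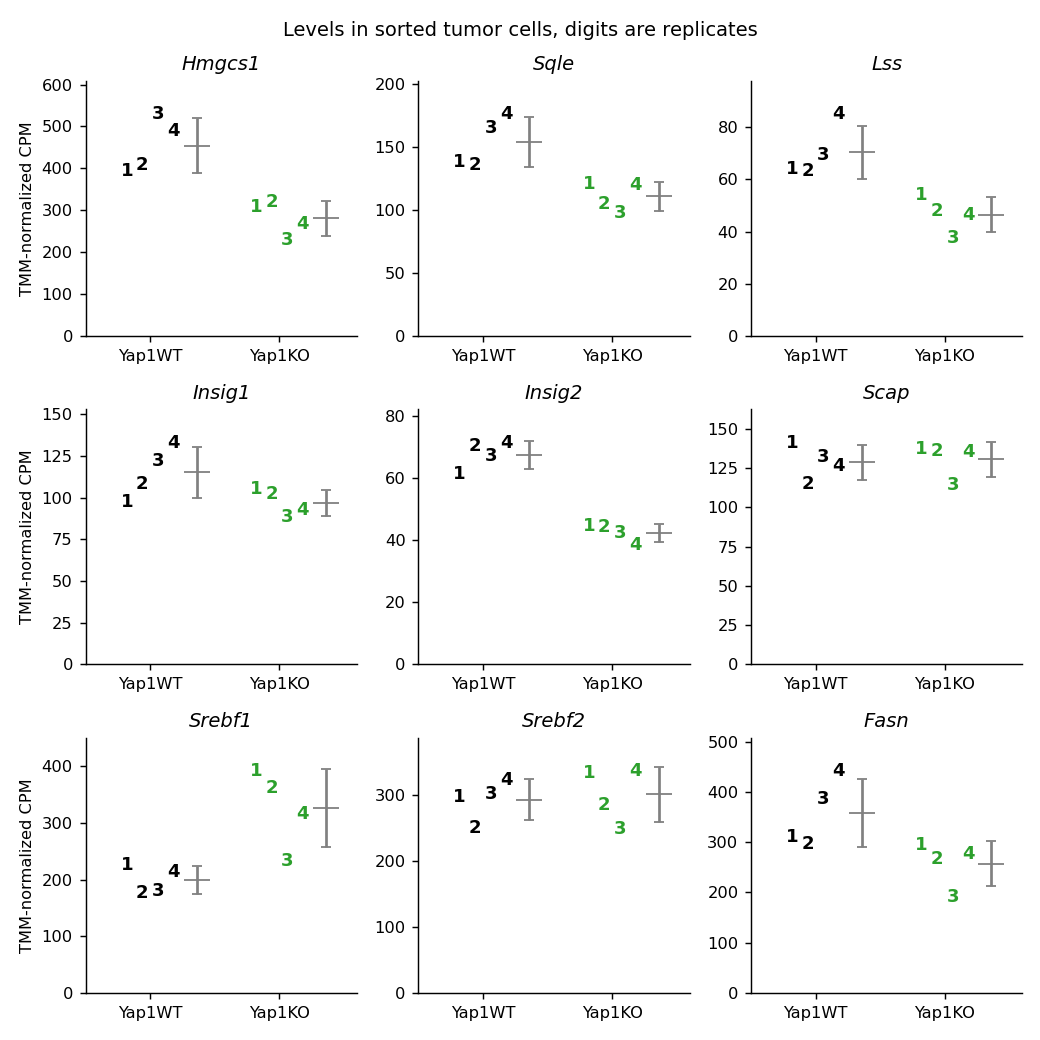
TMM-normalized CPM (y axis, from 0) of 9 genes in Yap1WT (black) and Yap1KO (green), where digits are replicate numbers and gray bars mean ± SD (n = 4). Insig2 separates at 61.4 to 71.5 against 38.5 to 44.5 CPM, Srebf1 in the opposite direction, and Srebf2 and Scap overlap.

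The 4 genes of cytosolic lipogenesis had no call by edgeR in either direction (before adjustment, 1 lower and 2 higher had p under 0.05; limma-voom called 0, and DESeq2 called Fasn lower). Fasn, the fatty acid synthase gene, was at 311, 296, 385 and 441 CPM in Yap1WT and at 294, 267, 191 and 277 in Yap1KO. The groups did not overlap, although Yap1KO replicate 1 lay close to Yap1WT replicate 2 (log2 fold change -0.48, SE 0.17, adjusted p = 0.137 from edgeR and 0.0483 from DESeq2). Acaca, whose enzyme supplies malonyl coenzyme A to fatty acid synthase, was at 20.2 to 23.2 CPM in Yap1WT and 16.4 to 21.7 in Yap1KO (log2 fold change -0.12). Acly and Acss2, which make cytosolic acetyl coenzyme A from citrate and from acetate, lay on the other side of 0. Their log2 fold changes were 0.37 (SE 0.13, adjusted p = 0.133 from edgeR) and 0.30 (SE 0.11, adjusted p = 0.163 from edgeR), and their groups overlapped in CPM. On the deposited log2 RPKM values the groups of Acly did not overlap, with 5.61 highest in Yap1WT and 5.64 lowest in Yap1KO.

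Within each group, some libraries were at the low or high end in many of the genes. Yap1KO replicate 3 had the lowest Yap1KO value in 19 of the 28 genes and the highest in 0. Yap1WT replicate 4 had the highest Yap1WT value in 16 genes, and Yap1WT replicate 2 the lowest in 16. Yap1KO replicate 1 was highest of its group in 14 genes and Yap1KO replicate 2 in 12.

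**Figure D3:**
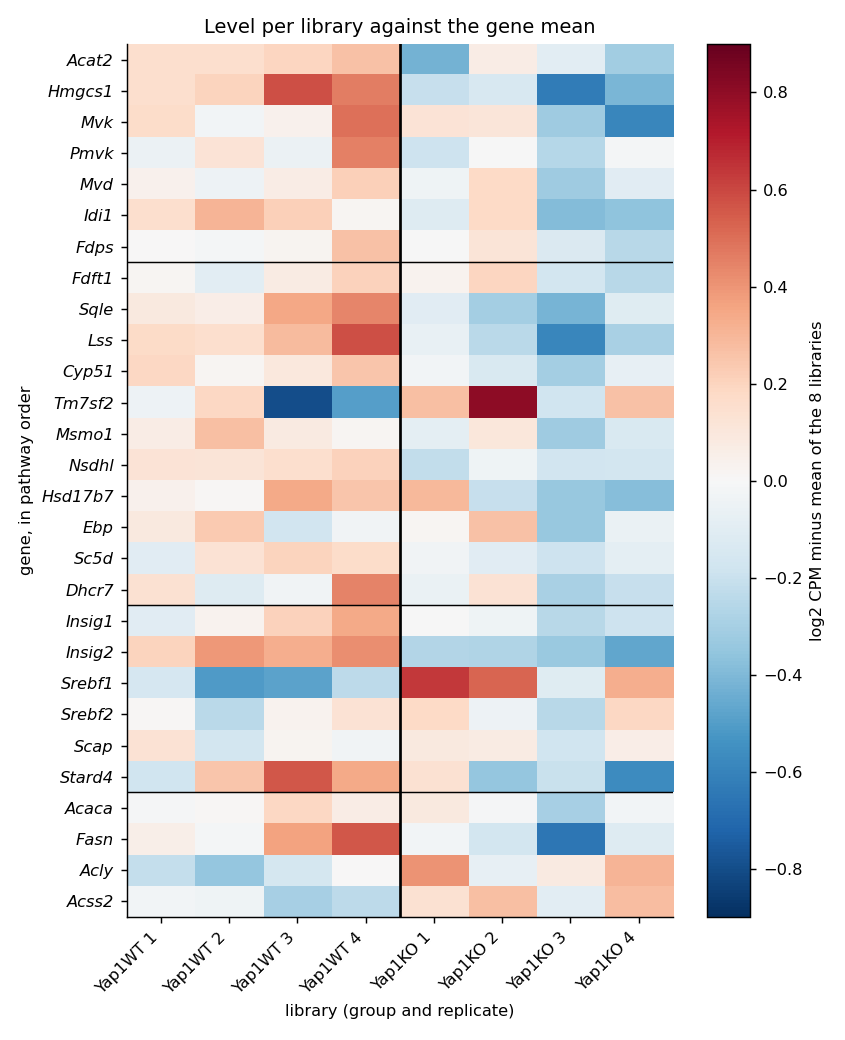
Log2 CPM of each of the 28 genes (rows) in each library (columns) minus the gene's mean over the 8 libraries, from blue (lower) to red (higher). Yap1KO replicate 3 is lowest of its group in 19 genes, and Srebf1, Tm7sf2, Acly and Acss2 are for the most part colored opposite to most other rows.

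The mouse numbers in the labels fall into an earlier and a later series, each with 4 of the libraries, and what the series stand for is not stated. The ratio of group means was below 0 on the log2 scale in both series for Hmgcs1 (-0.35 and -1.04), Sqle (-0.28 and -0.65), Lss (-0.32 and -0.88) and Insig2 (-0.57 and -0.78). It was above 0 in both for Srebf1 (0.90 and 0.48) and for Tm7sf2 (0.49 and 0.71). Within each series the Yap1KO values of Tm7sf2 lay above its Yap1WT values, and edgeR called it higher with a block for the series. Fasn was at -0.11 in the earlier series and -0.82 in the later one. The differences between the series were not tested. Among the 5 male libraries the ratios were -0.71 for Hmgcs1, -0.48 for Sqle, -0.51 for Lss, -0.65 for Insig2 and 0.88 for Srebf1.

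Insig2 was called whichever library was left out (adjusted p at most 0.00989 from edgeR). Hmgcs1 lost its call without Yap1WT replicate 3 (adjusted p = 0.0631 from edgeR) or Yap1KO replicate 4 (0.0646). Lss was called without Yap1WT replicate 2 or Yap1KO replicate 1 and lost without any other library (0.0501 to 0.0871), and Sqle was called without Yap1WT replicate 2 (0.0485) and lost without any other (0.0604 to 0.153). Srebf1 was called without Yap1WT replicate 1 or Yap1KO replicate 3 and lost without any other library (0.0554 to 0.105). Without Yap1KO replicate 2, Idi1 and Acat2 were called lower.

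The libraries were made without marking strand, so reads of overlapping genes may be shared. The annotated span of 12 of the 28 genes overlaps another gene, and for Fdft1, Tm7sf2, Srebf1 and Acaca a protein-coding one. Rai1, which overlaps Srebf1, was at a log2 fold change of 0.06 (adjusted p = 0.845 from edgeR). Ctsb, which overlaps Fdft1, rose (log2 fold change 0.45, adjusted p = 0.0248 from edgeR). The level of Fdft1 may be uncertain for that reason, and sharing of reads was not tested. The noncoding gene 4930483K19Rik, which overlaps Lss, was at -0.91 (adjusted p = 0.352).

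Scaled to gene length in the deposited log2 RPKM, Hmgcs1 had the highest level of the 28 genes, 6.78 ± 0.42 (SD over all 8 libraries), followed by Msmo1 at 6.60 ± 0.17, Srebf2 at 6.02 ± 0.14 and Srebf1 at 5.88 ± 0.44. The order of the means differed between the groups. In Yap1WT, Hmgcs1 was at 7.13 ± 0.19 and Msmo1 at 6.69 ± 0.13 log2 RPKM, and in Yap1KO they were at 6.43 ± 0.21 and 6.51 ± 0.18 (n = 4 each), within their spread. Srebf1 was at 5.53 ± 0.20 in Yap1WT, below Srebf2 at 6.0 ± 0.14. In Yap1KO, Srebf1 was at 6.23 ± 0.30 and Srebf2 at 6.05 ± 0.17, again within their spread. Both were at 5.83 in Yap1KO replicate 3, and in Yap1KO replicate 4 they were at 6.19 and 6.17. Insig2 was at 4.42 ± 0.36, below Insig1 at 5.33 ± 0.18. The lowest levels were those of Dhcr7 (3.80 ± 0.24), Hsd17b7 (2.53 ± 0.30) and Acaca (1.19 ± 0.16), which lay apart from one another by more than their SDs.

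Beyond the 28 genes, 4 lists hold further genes of the same pathways, with 50 genes in the table and 48 tested. Of these, 5 were lower and 7 higher in Yap1KO, against 2.34% and 3.53% of all genes tested. The list of other mevalonate and sterol genes had 2 of 11 lower, with a median log2 fold change of -0.19, and those were not cholesterol enzymes. They were Pdss2, of coenzyme Q synthesis (log2 fold change -0.75, SE 0.17, adjusted p = 0.0306 from edgeR), and Fnta, a subunit of protein prenyltransferases (-0.37, SE 0.09, adjusted p = 0.0443). These calls were lost without 5 (Pdss2) and 7 (Fnta) of the 8 libraries in turn. Over the 19 other settings Fnta was not called in 13, limma-voom among them.

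The list of SREBP processing and sterol-regulated degradation, with the proteases that cleave SREBP and the ligases that degrade INSIG, had 0 of 9 genes called by edgeR, limma-voom or DESeq2, and 0 at an unadjusted p under 0.05. Its median log2 fold change was 0.01. Erlin2, which encodes a protein of the endoplasmic reticulum membrane, was the most abundant of the 9, at 207 ± 13.2 CPM in Yap1WT and 208 ± 21.7 in Yap1KO.

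In the list of sterol uptake, transport, storage and export, 6 of 15 genes were called higher (3.53% of all genes were), and the other 9 did not pass. The log2 fold change was above 0 for 13 of the 15, with a median of 0.53, against -0.01 over all genes. The cholesterol exporter gene Abca1 was at 29.0, 33.1, 26.7 and 35.7 CPM in Yap1WT and at 80.4, 55.4, 51.5 and 60.1 in Yap1KO (log2 fold change 0.99, SE 0.16, adjusted p = 0.00485 from edgeR). Abcg1, another exporter, was at 18.8, 12, 10 and 14.7 CPM and at 47.1, 40.2, 26.5 and 41.6 CPM (1.48, SE 0.23, adjusted p = 0.00435). Npc1, which moves cholesterol out of lysosomes, was at 35.9, 30.4, 25.5 and 29.0 CPM and at 72.8, 51.0, 55.4 and 71.6 CPM (1.05, SE 0.15, adjusted p = 0.00297). In all of these every Yap1KO library lay above every Yap1WT library.

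Npc1l1, a sterol uptake gene, rose from a low level, 2.29 ± 1.13 to 8.47 ± 3.67 CPM (log2 fold change 1.89, SE 0.42, adjusted p = 0.0295 from edgeR). Scarb1, an HDL receptor gene (0.64, SE 0.16, adjusted p = 0.0451), and Stard3, of late endosomal sterol transfer (0.33, SE 0.08, adjusted p = 0.0448), were close to the threshold. Abca1, Abcg1 and Npc1 were called whichever library was left out, while Npc1l1, Scarb1 and Stard3 were lost without 5, 7 and 8 of the 8 libraries in turn. Over the 19 other settings Npc1l1 was not called in 7, limma-voom among them, and Stard3 in 10. Abca1, Abcg1 and Srebf1, all called higher, are among the known LXR targets, which were not examined as a set. The LXR genes Nr1h2 and Nr1h3 were both at a log2 fold change of 0.14, and neither passed the test. LXR activity was not measured, and a part of LXR in these changes was not tested.

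Of 13 tested genes of fatty acid and NADPH supply, 3 were lower and 1 higher, with a median log2 fold change of -0.16. Me1, the malic enzyme that yields NADPH for lipogenesis, was at 308, 310, 377 and 353 CPM in Yap1WT and at 172, 197, 127 and 205 in Yap1KO (log2 fold change -0.94, SE 0.15, adjusted p = 0.00562 from edgeR). Mid1ip1, an activator of acetyl-CoA carboxylase, was at 206, 184, 232 and 243 CPM and at 132, 142, 102 and 140 CPM (-0.75, SE 0.13, adjusted p = 0.00982). Elovl6, a fatty acid elongase gene, was at 70.8, 94.6, 89.4 and 98.7 CPM and at 57.7, 55.7, 46.6 and 51.8 CPM (-0.74, SE 0.12, adjusted p = 0.00634). None of these overlapped between the groups, and each was called whichever library was left out. Scd1, a desaturase gene under both SREBP1 and LXR, rose from 30.6 ± 8.5 to 65.9 ± 21.0 CPM (1.11, SE 0.24, adjusted p = 0.0249) and was lost without 5 of the 8 libraries in turn. Acacb, G6pdx, Pgd and the remaining genes of the list did not pass.

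**Figure D4:**
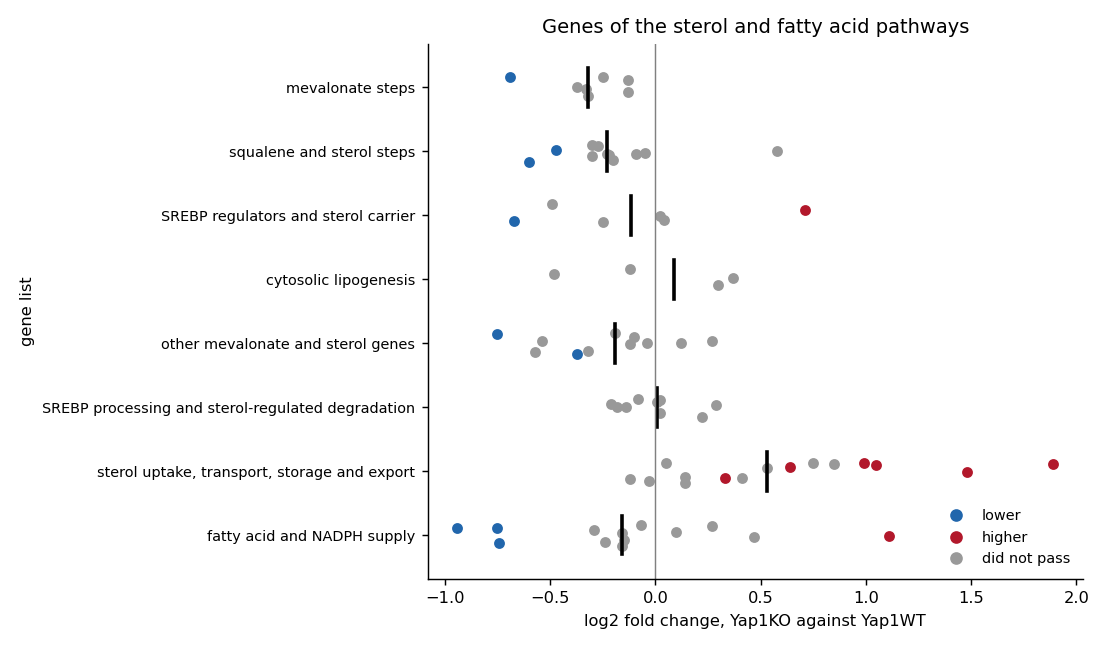
Log2 fold change (Yap1KO against Yap1WT, x axis) of each tested gene in the 4 roles and the 4 further lists (y axis), with points spread vertically for legibility and black bars at the medians. The median is -0.32 for the mevalonate steps and 0.53 for sterol uptake, transport, storage and export.

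Epithelial defining markers summed to 9170 to 11200 CPM in Yap1WT and 8420 to 10800 in Yap1KO, with Epcam, the marker of the sort, called higher (1 of 5). Markers of mucous neck cells were called higher in 4 of 5 genes and summed to 1450 to 2950 CPM against 3110 to 5850. Cd44, 1 of these 4, had been reported by the study as higher in these data. Of the 8 genes listed as foveolar markers, 7 had a log2 fold change below 0. The 3 called lower were Capn8, Anxa10 and Sult1c2. The study had already named Capn8 as reduced and Sult1c2 as Yap1-dependent from these data. Gkn1, Gkn2, Tff1 and Muc5ac were below 0 and did not pass (adjusted p = 0.109 to 0.682 from edgeR). Tff2 was the abundant gene of this list above 0 (log2 fold change 0.50, not called). It may also come from mucous neck cells, so its place among foveolar markers is uncertain. On the list as planned, with Tff2, the sums were 73100 to 120000 CPM against 76500 to 104000. Without Tff2, a step that was not planned, the other 7 summed to 31300 to 63400 CPM against 21800 to 37800. The groups overlapped both ways. The 7 proliferation genes were all below 0 (median log2 fold change -0.39) and summed to 493 to 869 CPM against 312 to 683. Of these, 0 were called by edgeR and 1 was lower at an unadjusted p under 0.05. Endothelial markers were all 6 above 0 (median log2 fold change 1.32), with 5 at an unadjusted p under 0.05 and 1 called higher. They summed to 133 to 503 CPM against 466 to 944. The 4 markers of parietal and chief cells were all below 0 (median log2 fold change -1.54, 3 of them with an unadjusted p under 0.05) and summed to 240 to 3590 CPM against 437 to 1790. Of 6 fibroblast markers 5 were above 0 (median 1.0), and they summed to 81.5 to 675 CPM against 306 to 1040. The part of these cell types in the values of the 28 genes and of the further lists was not tested. Adipocyte markers, of cells rich in fatty acid synthase, summed to 19.5 to 79.0 CPM against 19.4 to 75.1, with Lep at 0 in 6 libraries and Plin1 in 5. Leukocyte markers summed to 10.5 to 16.8 CPM against 9.12 to 17.7, with Cd3e at 0 in 6 libraries and Cd79a in 5. Among them Cd68 was called higher (log2 fold change 1.06, adjusted p = 0.0468 from edgeR), and Ptprc was lower without overlap and not called (-1.17, adjusted p = 0.151).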

How the data were processed

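Bulk RNA of sorted EpCAM-positive tumor cells was measured in 8 libraries, 4 per group. Subread was used by the authors to align reads to mm10 (GRCm38), and featureCounts gave the count of each gene (versions not given in the sources used here). The deposited counts are whole numbers without normalization, from a kit that does not mark strand. The deposited log2 values, 1 set per library, were made by the authors with limma's voom and quantile normalization and are log2 RPKM, although their header reads FPKM. Of the columns of the count table, 6 match no sample and were not used. Entries without a gene name (1277, with 0.552% to 0.789% of a library's counts) and, as in the study, 762 pseudogenes were left out.

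Genes with more than 0.5 CPM in 6 or more libraries were tested with the quasi-likelihood F test of edgeR 4.0.16 in R 4.3.3, after TMM scaling, and p-values were adjusted by Benjamini-Hochberg. Standard errors follow from the log2 fold change and its F value. The labels state no pairing of the mice, and p-values measure the spread between these 8 mice. The scripts were tested on simulated counts. In that simulation edgeR detected 15.2% of the genes given a 1.5-fold difference, and 49.2% at 2-fold. At 4-fold it detected 94.8%, and it made 4 false calls. A gene that did not pass may therefore still differ between the groups, above all where the difference is small. The 28 genes, the further lists and the markers were chosen with earlier results of these data known. By rule, genes that passed the test or did not overlap between groups, and Srebf1, Srebf2, Insig1, Insig2, Scap and Fasn, were given in full, with the passing genes of the further lists, or the most abundant where none passed. Tm7sf2, Stard4, Nr1h2, Nr1h3, Ctsb, Rai1 and 4930483K19Rik were named after their values were seen. Alternatives were limma-voom (limma 3.58.1), DESeq2 1.42.0, other scaling factors and filters, blocks, a sex term, the deposited log2 values, and leaving out each library. Promoters and plots used Python 3.11.15 and matplotlib 3.10.9. The results of some genes are not reported here. The other experiments of the study were not analysed here.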

Additional observations from a re-analysis of the deposited data

Results flagged for a closer look

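Among the 56 sets of 4 values (28 genes in each group), 2 held a library that stood far from the others by Dixon's ratio of gap to range, and chance alone marks about 1 in 20 such sets. Fdps was at 77.5 CPM in Yap1WT replicate 4 and at 63.6 to 65.5 CPM in the other Yap1WT libraries (ratio 0.862). Scap was at 114 CPM in Yap1KO replicate 3 and at 135 to 137 CPM in the other Yap1KO libraries (ratio 0.879). Neither gene passed the test between the groups.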

How the results depend on the processing

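Across the alternatives, the calls of Insig2, Hmgcs1 and Lss held under every setting that kept all 8 libraries, as did that of Srebf1, while Sqle was lost with RLE factors (adjusted p = 0.0502 from edgeR) and with a sex term (0.0674). With each library left out in turn, the lower calls among the 28 genes ranged from 1 to 4 and the higher calls from 0 to 1. Those among the further pathway genes ranged from 3 to 5 lower and from 3 to 5 higher. Without Yap1WT replicate 3 or Yap1KO replicate 4, Insig2 alone was called of the 28. These settings hold fewer libraries, and no other cause was tested. DESeq2 called 6 lower, adding Fasn and Nsdhl, and 1 higher. On the deposited log2 RPKM values, 2 genes lay higher without overlap, Srebf1 and Acly. The log2 fold change of Srebf2 ranged from -0.03 to 0.12 with each library left out and that of Scap from -0.03 to 0.08. Same-numbered samples correlated in their deviations at 0.04, 0.35, 0.05 and 0.15, and differently numbered ones at -0.24 to 0.2. The labels state no pairing, and the numbers were not taken to pair the mice. A replicate block gave 4 lower and 2 higher calls among the 28 genes, adding Tm7sf2, and a block for the series of mouse numbers gave 4 and 2. Over all genes the calls rose from 316 lower and 476 higher to 552 and 755 with the replicate block. With the series block they were 451 and 598. Whether pairing or a batch has a part in this was not tested. The effect of depth was not tested, and the smallest library held 18229945 counts.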
